A study of Mus musculus with 656 samples.

Results

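Cells of the mouse fibroblast line 3T3, kept for 30 min with tumour necrosis factor alpha (TNF-α), were compared with and without 100 µM SC-514, a small-molecule inhibitor of the kinase IKKβ. The libraries were chosen by their labels alone. They are 4 with 100 µM SC-514 and 4 with 0 µM, which is 2 of the 41 groups of 4 libraries in the series. The labels give TNF-α at 10 ng/ml and an exposure to SC-514 of 1 h before the cytokine. RNA was read by TagSeq, which sequences a fragment near the 3′ end of each polyadenylated transcript. The other groups used here are an unstimulated group with neither agent, 25 and 50 µM SC-514 at 30 min of TNF-α, 100 and 0 µM at 15 and 60 min of TNF-α, and 100 and 0 µM at 30 min of interleukin-1β (IL-1β, 1 ng/ml). Each of these groups has 4 libraries. No group held SC-514 without a cytokine, and the labels do not name the vehicle of the 0 µM cells, so an effect of the compound on resting cells cannot be told apart from an effect on the response to TNF-α. Column and title prefixes disagree on which cytokine a library received. The cytokine label was followed, and the libraries are those labelled TNF-α. Nothing in the labels tells separate cultures from repeat libraries within a group. The p-values therefore cover just the variation among the libraries sequenced, which may be technical.

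In resting fibroblasts NF-κB dimers such as RELA with p50 are held in the cytoplasm by IκB proteins. TNF-α activates the IKK complex, whose subunit IKKβ phosphorylates IκBα and marks it for destruction. The freed dimers enter the nucleus and bind κB sites near genes of chemokines, cytokines and adhesion molecules, and near genes that end the signal, among them Nfkbia, which encodes IκBα, and Tnfaip3, which encodes the ubiquitin-editing enzyme A20. The same receptor activates the MAP kinases JNK, p38 and ERK, which drive immediate early genes such as Fos and Egr1 through other factors.

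The promoters of 4 TNF-α-responsive genes that were lower with SC-514 are printed to show the κB sites they carry, beside that of Il1rl1, which was lower too although TNF-α had not raised it. The sequences are RefSeq's on GRCm38.p6, the 250 bases before the start of transcription, 5′ to 3′ on the strand of the gene. Capitals mark matches to the κB consensus, searched on both strands, and overlapping matches run together. Nfkbia lies at chr12:55492648-55492897 (minus strand), Cxcl1 at chr5:90890995-90891244 (plus), Il6 at chr5:30012864-30013113 (plus), Ccl20 at chr1:83116516-83116765 (plus) and Il1rl1 at chr1:40429320-40429569 (plus).
Nfkbia: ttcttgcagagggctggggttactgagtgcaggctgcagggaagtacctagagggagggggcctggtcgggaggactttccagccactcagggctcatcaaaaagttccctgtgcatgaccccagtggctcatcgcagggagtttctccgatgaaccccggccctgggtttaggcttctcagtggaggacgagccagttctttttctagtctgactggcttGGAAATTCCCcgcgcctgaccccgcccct
Cxcl1: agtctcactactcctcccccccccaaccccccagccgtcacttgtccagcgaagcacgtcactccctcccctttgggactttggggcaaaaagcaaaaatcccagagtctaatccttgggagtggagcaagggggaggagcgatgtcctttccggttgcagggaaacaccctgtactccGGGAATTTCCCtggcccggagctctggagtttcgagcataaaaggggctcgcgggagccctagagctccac
Il6: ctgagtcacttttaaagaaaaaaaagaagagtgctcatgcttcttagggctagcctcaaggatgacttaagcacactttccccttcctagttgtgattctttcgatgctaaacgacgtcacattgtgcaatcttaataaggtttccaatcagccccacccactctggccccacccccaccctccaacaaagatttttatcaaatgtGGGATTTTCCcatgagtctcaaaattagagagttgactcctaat
Ccl20: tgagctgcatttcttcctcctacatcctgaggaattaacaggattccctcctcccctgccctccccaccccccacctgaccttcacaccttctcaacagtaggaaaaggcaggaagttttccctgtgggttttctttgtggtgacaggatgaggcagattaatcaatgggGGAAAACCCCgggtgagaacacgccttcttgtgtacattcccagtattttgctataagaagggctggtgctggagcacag
Il1rl1: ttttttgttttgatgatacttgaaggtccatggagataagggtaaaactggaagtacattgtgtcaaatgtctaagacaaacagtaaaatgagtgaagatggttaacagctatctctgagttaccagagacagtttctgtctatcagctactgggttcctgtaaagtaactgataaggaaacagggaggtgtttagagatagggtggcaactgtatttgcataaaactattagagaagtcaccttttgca
Il1rl1 has no match in this window. A match to the κB consensus stood in 8.57% of 13778 promoters of this length. It stood in 10.3% of the 917 promoters matched to genes lower with SC-514, in 8.88% of the 608 matched to genes that were higher and in 8.59% of the 6972 matched to tested genes that were not called. Of 42 matched genes that TNF-α alone had raised at 30 min, 13 (31%) held a match: 9 of the 28 that SC-514 lowered (32.1%) and 4 of the other 14 (28.6%). Among 15 matched promoters of NF-κB-driven cytokines and chemokines, 8 (53.3%) held a match. A match is only a description of the sequence.

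The 8 libraries held 1070804 to 1387285 counts. Mitochondrial transcripts, a sign of RNA quality, took 0.620 to 0.739% of the counts at 0 µM and 0.608 to 0.777% at 100 µM. The factors that scale library size (TMM) were 0.974 to 0.987 at 0 µM and 1.013 to 1.028 at 100 µM. Of 14 fibroblast markers all were detected. Marker levels are given in CPM (counts scaled to a common library size), here without TMM scaling. Col1a1 was at 1060 and 1030 CPM in the 0 and 100 µM groups and Vim at 1380 and 1360 CPM. Of the 13 that were tested, 5 fell with SC-514 and 1 rose, and Fn1 and Thy1 went from 1230 and 710 to 938 and 564 CPM and Col3a1 from 200 to 272 CPM. Among markers of other cell types Adgre1, Fcgr3, Cd3e, Cdh5, Epcam, Krt5 and Krt14 had no count in the 8 libraries, but others were counted. The 8 macrophage markers summed to 31.5 to 39.5 CPM at 0 µM and 14.9 to 30.0 at 100 µM, most of it from Cd14 (21.1 and 7.26 CPM), Lyz2 (6.39 and 8.08) and Cd68 (4.30 and 3.93). The 4 adipocyte markers, mostly Lpl, summed to 107 to 134 and 139 to 192 CPM. Lymphocyte and endothelial markers, such as Cd8a, Ms4a1 and Pecam1, summed to at most 9.90 CPM and epithelial ones to less, in ranges that overlapped between the groups. Of these markers Cd14 fell and Lpl rose in the test, and their part in the other results was not tested. In RNA from whole cultures, fewer cells that express a gene and less RNA per cell cannot be told apart. Ikbkb, which encodes IKKβ, was measured at 40.2 ± 5.71 CPM without and 40.5 ± 3.25 CPM with SC-514 (SD, n = 4). SC-514 acts on the protein, so this level does not test the treatment.

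With 100 µM SC-514, 1158 genes fell and 767 rose among 10766 tested (edgeR quasi-likelihood test, Benjamini-Hochberg adjusted p under 0.05), which is 10.8% and 7.12% of them. Of these calls 39.8% were rises, against 50.2% of 2016 calls when the libraries were scaled by RLE factors (the median ratio to a mean library) in place of TMM, so neither direction prevailed under both scalings. The median change was -0.52 on the log2 scale among the genes that fell and 0.57 among those that rose, and 0.01 over all tested genes. Of the falling genes 183 changed by more than 1 log2 unit and 41 by more than 2. Of the rising genes 96 and 11 did. The 4 libraries of a group did not overlap those of the other in 920 of the falling and 554 of the rising genes. Over all tested genes, 10.6% did not overlap with SC-514 lower and 8.17% with SC-514 higher. Il6, Ccl20, Ramp3, Has2 and Mmp10 were among the 15 largest falls of genes with at least 5 CPM and groups without overlap. Fosb, Hist1h1c, Atoh8, Slc30a1 and Id2 were among the 15 largest rises.

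**Figure D1:**
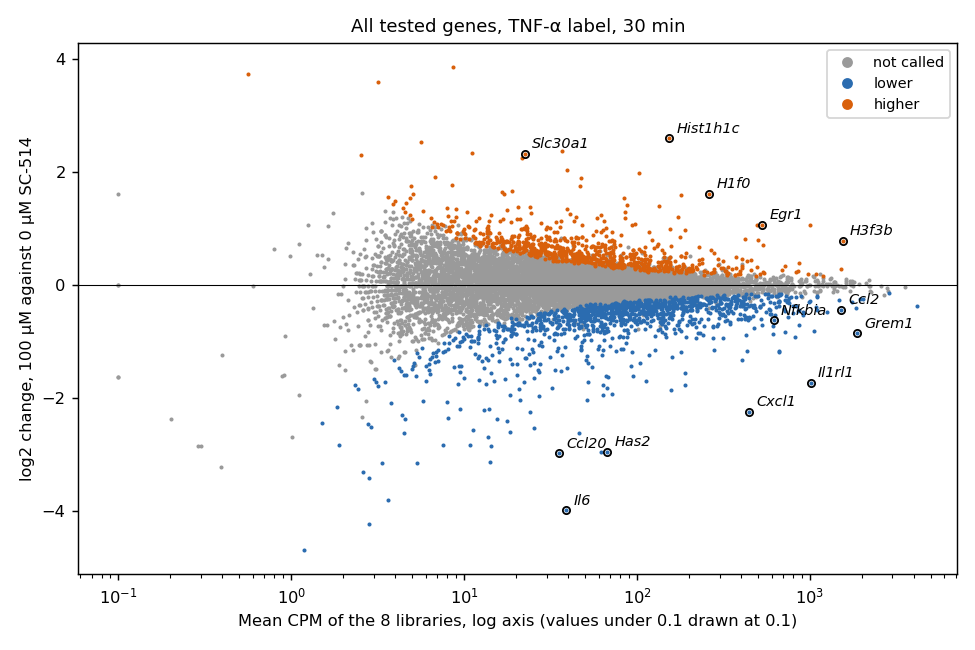
Log2 change with 100 µM SC-514 (vertical) against the mean CPM of the 8 libraries (log horizontal axis) for the 10766 tested genes, 1 point each, coloured by call. The 1158 lower genes extend to larger changes than the 767 higher ones, with Il6 at -3.99 and Hist1h1c at 2.61 among the labelled genes.

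Of the inflammatory lists, that of secreted cytokines and chemokines had the lowest median. Of 23 tested members of a list of NF-κB-driven cytokines and chemokines, 12 fell and none rose, and the median change was -1.09 against 0.01 over all genes. With only the compared groups in the fit, 16 members passed the filter, 10 fell and none rose, and the median was -0.74. The others of the 23 passed it through other groups. Without number 1, 3 or 4 in every group the median was -0.772, -0.813 and -0.835, and without number 2 it was -1.18. Over all tested genes 10.8% fell and 7.12% rose, the shares to set beside this and later list counts. The cytokine Il6, read in 4 libraries without SC-514 at 70.7, 37.1, 82.8 and 104 CPM, stood at 3.52, 4.58, 3.68 and 6.55 CPM with it. The lowest untreated library was above the highest treated by a wide margin, and the log2 change was -3.99 ± 0.41 (SE, adjusted p = 4.03e-14). The mean with SC-514, 4.58 CPM, was also under that of the unstimulated cells, 11.7 CPM, and this gap missed the threshold (log2 -1.34, adjusted p = 0.107). Cxcl1, a neutrophil chemokine, was at 620, 727, 779 and 810 CPM without SC-514 and at 179, 131, 137 and 172 CPM with it. The groups were far apart (log2 change -2.24 ± 0.16, adjusted p = 3.28e-24). With SC-514, Cxcl1 was still above the 86.2 CPM of unstimulated cells (log2 0.85, adjusted p = 0.000382).

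Ccl20, a chemokine for dendritic cells and lymphocytes, fell from 82.4, 57.4, 45.2 and 67.1 CPM to 4.23, 15.3, 5.52 and 6.55 CPM (log2 change -2.98 ± 0.37, adjusted p = 8.29e-11). All 4 treated libraries lay under the lowest untreated library. The difference from the 1.96 CPM of unstimulated cells did not pass the test (log2 1.93, adjusted p = 0.0672). The haematopoietic growth factor Csf2 fell from a mean of 30.0 to 5.59 CPM (log2 change -2.42 ± 0.36, adjusted p = 3.75e-08). The chemokine Cxcl5 fell from 245 to 67.6 CPM, under the 136 CPM of unstimulated cells (log2 -1.003, adjusted p = 8.35e-05). Cxcl2 was sparse, with 34 counts over the untreated and 2 over the treated libraries, a ratio of 17.2 with a 95% counting interval of 4.41 to 148. It had no count in the unstimulated libraries.

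The chemokines were not lowered alike. Ccl2, a monocyte chemokine, was at 1563, 1701, 1792 and 1919 CPM without SC-514 and at 1107, 1448, 1299 and 1311 CPM with it. The groups did not overlap, but the change was small (log2 -0.43 ± 0.11, adjusted p = 0.00282). The related chemokine Ccl7 was at 829, 918, 1018 and 1090 CPM without and 877, 936, 1012 and 971 CPM with SC-514. These ranges lay on top of each other (log2 -0.02 ± 0.14, adjusted p = 0.946), although TNF-α had raised Ccl7 above the 581 CPM of unstimulated cells. Il33, Il11, Cx3cl1, Cxcl16 and Ccl9 fell, with log2 changes of -2.06, -1.68, -1.09, -0.59 and -0.75, and TNF-α alone had raised none of these 5 at this time. Csf1, Lif, Ccl5 and Tnfsf9 were not called, with log2 changes of 0.13, -0.26, -0.01 and -0.39.

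**Figure D2:**
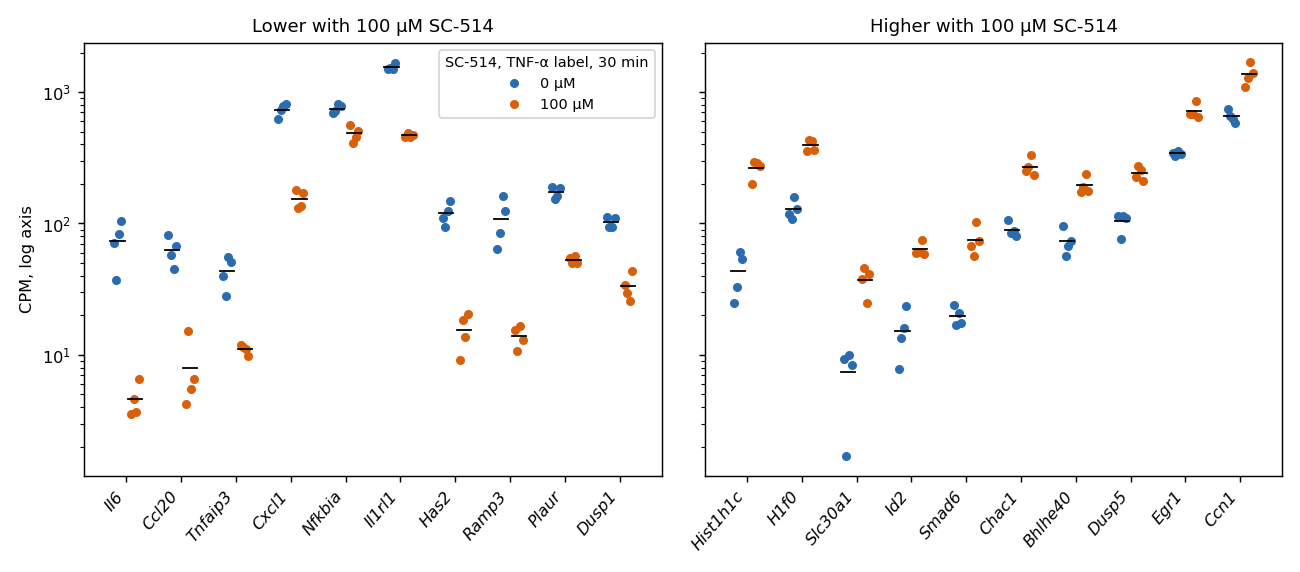
CPM (log axis) of 10 genes that fell and 10 that rose with 100 µM SC-514, 1 point per library and a line at the mean of 4. The groups of 4 are apart for every gene drawn, which were picked from those described in the text.

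Some genes that feed back on NF-κB fell, by unequal amounts. Of 25 tested components and feedback genes 6 fell, 2 rose and 17 were not called, with a median change of -0.13. Over all tested genes 10.8% fell and 7.12% rose, so 2 rises among 25 genes are near that share. Nfkbia was at 689, 719, 806 and 778 CPM without SC-514 and at 564, 409, 457 and 508 CPM with it, in groups that did not overlap (log2 change -0.62 ± 0.13, adjusted p = 6.86e-05). Even with 100 µM SC-514 its mean of 485 CPM stood above the 140.4 CPM of unstimulated cells (log2 1.79, adjusted p = 5.80e-20). Tnfaip3 fell further, from 39.6, 27.8, 55.2 and 51.1 CPM to 12.0, 11.5, 11.03 and 9.82 CPM (log2 change -1.96 ± 0.31, adjusted p = 3.12e-07). Nfkbiz, which encodes the nuclear cofactor IκBζ, fell from a mean of 134 to 49.8 CPM (log2 change -1.44 ± 0.16, adjusted p = 8.69e-13). Traf1, Bcl3 and Tnip3 fell by 1.23, 1.06 and 1.61 on the log2 scale.

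The 2 members that rose were NF-κB subunits, Rel from 23.5 to 45.3 CPM (log2 change 0.94, adjusted p = 0.000224) and Relb from 63.8 to 81.8 CPM (0.36, adjusted p = 0.0378). Without 1 of 4 libraries in turn (untreated 1 or 4, treated 2 or 4) 1 member rose in place of 2. The subunits Rela and Nfkb1 and the kinase Chuk were not called, with log2 changes of -0.11, -0.13 and -0.20.

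Enzymes and surface proteins of the inflammatory response moved less uniformly. Of 25 tested NF-κB-driven adhesion, protease and effector genes, 10 fell and 1 rose, with a median of -0.50. Has2, the synthase of the matrix polymer hyaluronan, fell from 110, 93.6, 125 and 149 CPM to 9.16, 18.3, 13.8 and 20.5 CPM (log2 change -2.96 ± 0.23, adjusted p = 3.66e-21). This was under the 88.9 CPM of unstimulated cells (log2 -2.53, adjusted p = 3.42e-16), and TNF-α alone had given a log2 change of 0.43 that did not pass the test. The urokinase receptor Plaur fell from 173 to 53.1 CPM, its ligand Plau from 54.2 to 18.9 CPM, and the stromelysins Mmp10 from 25.0 to 3.52 CPM and Mmp3 from 313 to 169 CPM. The transcription factor Irf1 fell from 227 to 93.3 CPM and the prostaglandin synthase Ptgs2 from 280.0 to 178 CPM. The adhesion molecule gene Vcam1 was at 331 ± 28.2 and 329 ± 25.0 CPM, and Icam1 was near 1 CPM in both groups, too low to read a change.

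TNF-α alone had raised 60 genes at 30 min, 0.557% of those tested, and SC-514 did not lower them all. With the library number as a block and only these groups in the fit, TNF-α alone raised 114. The untreated TNF-α libraries are shared by both comparisons, so their values are set side by side and no test of the overlap is given. Of the 60 genes, 38 were lower with 100 µM SC-514, 8 were higher and 14 were not called. With SC-514, 29 of the 60 still stood above the unstimulated level and 3 below it. Over all genes, TNF-α with 100 µM SC-514 differed from unstimulated cells in 977 genes that were higher (9.07%) and 1207 that were lower (11.2%).

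The 38 lower genes included secreted factors and inhibitors of signalling. The MAP kinase phosphatase Dusp1 was at 113, 94.5, 93.7 and 110 CPM without and 33.8, 29.8, 25.7 and 43.4 CPM with SC-514 (log2 change -1.63 ± 0.19, adjusted p = 1.75e-11). All treated libraries were far under the untreated, and unstimulated cells had 25.7 CPM. Tcim fell from 79.4 to 13.2 CPM, where unstimulated cells had 14.1 CPM, and Rgs16, a regulator of G-protein signalling, from 113 to 30.0 CPM, where they had 30.6 CPM. Zfp36, whose protein destabilises cytokine transcripts, fell only in part, from 303 to 184 CPM against 24.2 CPM in unstimulated cells. Ier3, an early response gene linked to survival, fell from 601 to 355 CPM against 122 CPM.

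The 8 genes that were higher with SC-514 although TNF-α had already raised them included Egr1, Ccn1, Hbegf, Junb, Ppp1r15a, Plk2 and Vasn. The zinc-finger factor Egr1 was at 343, 326, 355 and 341 CPM without and 684, 677, 859 and 649 CPM with SC-514 (log2 change 1.07 ± 0.19, adjusted p = 3.41e-06). Unstimulated cells had 55.0 CPM. The matrix protein gene Ccn1 rose from 654 ± 70.7 to 1361 ± 247 CPM against 278 CPM in unstimulated cells, in groups without overlap. Junb, a subunit of AP-1, rose from 341 to 473 CPM (log2 change 0.47, adjusted p = 0.0129), a call lost without library 3 of the untreated (adjusted p = 0.0591) or the treated group (0.0763). Without either of these libraries 5 of the 60 genes were higher in place of 8. Fos was at 35.7, 37.1, 42.7 and 57.9 CPM without and 44.4, 33.6, 49.6 and 48.3 CPM with SC-514. These values overlapped fully (log2 change 0.01 ± 0.26, adjusted p = 0.992), against 3.37 CPM in unstimulated cells.

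Across 41 tested immediate early genes, 13 fell and 14 rose, with a median of 0.01. The falling members included Jun, from 212 to 135 CPM (log2 change -0.65, adjusted p = 7.14e-05), Btg2 (-1.15), Sgk1 (-0.95), Klf2 (-1.64), Nr4a1 (-0.60) and Myc (-0.45). The rising members included Klf10 (1.19), Gadd45a (1.02), Klf4 (0.56) and Fosb. Fosb, an AP-1 subunit, was at 4.93, 6.87, 11.03 and 42.6 CPM with SC-514 and at most 1.67 CPM without it, so 1 library carried much of its mean. Its call (adjusted p = 0.03) was lost without that library, treated library 4 (log2 2.75, adjusted p = 0.28), and without each untreated library in turn (adjusted p 0.0527 to 0.0755). Without untreated library 3, 9 of the 41 genes rose. Ier2, Gadd45b, Egr2 and Atf3 were not called, and Atf3 had a log2 change of 1.03 with an adjusted p of 0.0579. Among 17 MAP kinase phosphatases and ERK feedback genes, 4 fell, led by Dusp1, and 3 rose, led by Dusp5, which went from 114, 75.9, 115 and 110 CPM to 225, 274, 254 and 210 CPM (log2 change 1.21 ± 0.17, adjusted p = 9.29e-09). Scaled by RLE factors, 2 of the 17 fell and 4 rose. Without untreated library 1 or 4, or treated library 4, 1 or 2 fell.

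**Figure D3:**
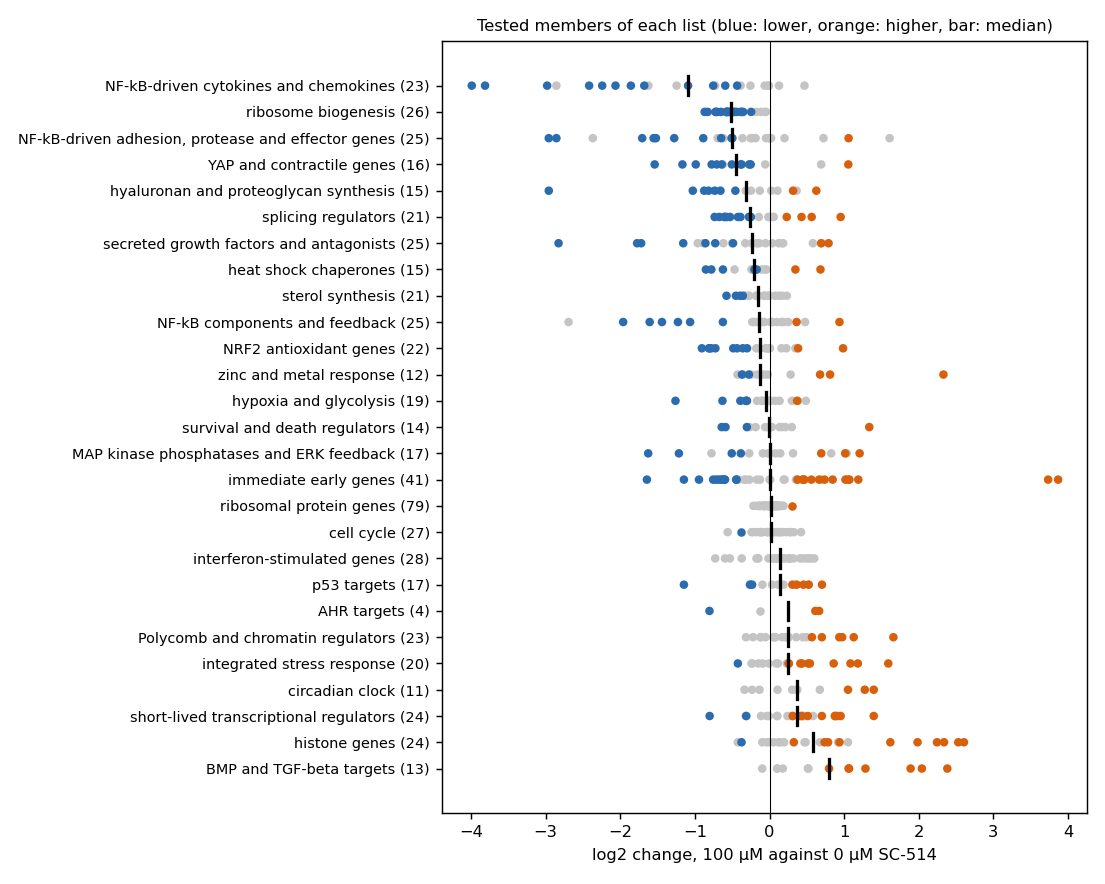
Log2 change with 100 µM SC-514 of each tested member of 27 gene lists, with the number tested in brackets, the genes that passed the test in blue (lower) or orange (higher), and a bar at the median of the list. In this fit of all 41 groups the list medians run from -1.09 for cytokines and chemokines to 0.80 for BMP and TGF-β targets.

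Most genes that changed with SC-514 were not genes that TNF-α raises. Of the 1158 falling genes, 87.9% were not among the 447 genes (4.15% of those tested) that TNF-α raised by 60 min in other libraries, and of the 767 rising genes 90.9% were not. Il1rl1, which encodes the receptor of interleukin-33 and its soluble form, is an abundant transcript of these cells. It was at 1510, 1537, 1505 and 1667 CPM without and 459, 492, 453 and 471 CPM with SC-514, against 1582 CPM in unstimulated cells. The spread within each group was small beside this gap (log2 change -1.73 ± 0.11, adjusted p = 1.31e-27). Ramp3, a partner of calcitonin-family receptors, fell from 63.7, 85.2, 162 and 125 CPM to 15.5, 10.7, 16.5 and 13.1 CPM (log2 change -2.96 ± 0.31, adjusted p = 1.14e-13). The endothelial anticoagulant receptor Thbd fell from 295 to 86.6 CPM and the transcription factor Sox4 from 916 to 401 CPM. Pde4b, a cAMP phosphodiesterase, fell from 23.9 to 3.63 CPM, and the potassium channel Kcnk10 had 27 counts without and 1 with SC-514, a ratio of 27.3 with a 95% counting interval of 4.5 to 1120.

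Secreted growth factors and antagonists were among these genes. Of 25 tested, 7 fell and 2 rose (4 with RLE factors), with a median of -0.24, against 10.8% and 7.12% of all tested genes. This list was written after these libraries had been examined. The BMP antagonist Grem1 was at 2297, 2240, 2469 and 2634 CPM without and 1231, 1327, 1368 and 1394 CPM with SC-514 (log2 change -0.86 ± 0.06, adjusted p = 1.31e-27). Its libraries were tightly grouped on either side. The epithelial growth factor Fgf7 fell from 385 to 173 CPM, the hormone Stc1 from 97.7 to 28.7 CPM and the activin subunit Inhba from 79.6 to 24.0 CPM.

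Several targets of BMP and TGF-β signalling rose. Of 13 tested, 7 rose, 6 were not called and none fell, with a median of 0.80, against 7.12% that rose over all tested genes. Id2, an inhibitor of basic helix-loop-helix factors, rose from 7.77, 13.5, 15.9 and 23.6 CPM to 59.2, 61.1, 74.5 and 58.9 CPM (log2 change 2.04 ± 0.30, adjusted p = 2.21e-08). Atoh8 rose from 11.7 to 61.6 CPM, the inhibitory Smads Smad6 from 19.9 to 74.8 CPM and Smad7 from 60.1 to 127 CPM, and the co-repressor Skil from 49.2 to 121 CPM. Id3 rose from 366 to 638 CPM, whereas Id1 had a log2 change of 0.10 and was not called.

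Histone genes carried several of the largest rises. Of 74 listed histone genes 24 passed the filter, and of these 10 rose and 1 fell, with a median of 0.58. All 74 together took 0.259 to 0.309% of the counts without and 0.419 to 0.497% with SC-514. TagSeq reads polyadenylated transcripts, so histone transcripts without a poly(A) tail are not covered. The linker histone gene Hist1h1c was at 24.9, 32.9, 61.1 and 54.1 CPM without and 201, 295, 287 and 275 CPM with SC-514. The groups were well apart, and the log2 change was 2.61 ± 0.28 (adjusted p = 2.55e-13). H1f0, the linker histone of non-dividing cells, rose from 128 to 393 CPM, and H3f3b, a replacement histone H3, from 1137 to 1959 CPM. Hist1h2bc rose from 41.5 to 164.1 CPM and Hist1h4i from 7.39 to 35.6 CPM. Hist2h3c1 and Hist2h3c2 are near-identical copies whose reads the counting may have split, so their changes of 2.34 and 2.53 are uncertain. The cell cycle list, with 1 of 27 tested genes falling (Ccnd1, log2 -0.38) and none rising, had a median of 0.02.

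Some regulators of chromatin and transcription rose with SC-514, and most of those tested were not called. Of 24 tested short-lived transcriptional regulators, 10 rose and 2 fell, with a median of 0.36. Bhlhe40, a repressor tied to the circadian clock, was at 96.4, 56.5, 67.8 and 73.2 CPM without and 175, 191, 239 and 176 CPM with SC-514 (log2 change 1.40 ± 0.15, adjusted p = 1.41e-13). Brd2, a reader of acetylated histones, rose from 406 to 660 CPM, and the kinase of splicing factors Clk1 from 39.6 to 76.8 CPM. Among 23 Polycomb and chromatin regulators, 6 rose and none fell, including Epc1 (log2 1.13), Rybp (0.97) and Ubn1 (0.94). That list was written after these libraries had been examined. Of 11 clock genes 3 rose: Bhlhe40, Cry2 (1.28) and Nr1d1 (1.05).

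The integrated stress response, in which the factor ATF4 induces genes of amino acid supply and protein folding, had 10 rising genes and 1 falling gene among 20 tested, with a median of 0.25. Over all tested genes 7.12% rose and 10.8% fell. Chac1, which degrades glutathione, was at 106, 85.2, 87.0 and 80.0 CPM without and 250, 268, 333 and 233 CPM with SC-514 (log2 change 1.59 ± 0.24, adjusted p = 7.59e-08). All treated libraries stood far above the untreated. Ddit3 rose from 62.2 to 133 CPM, Sesn2 from 35.8 to 81.1 CPM and Trib3 from 126 to 228 CPM. Asns, Psat1 and Phgdh, which make amino acids, were not called, with log2 changes of 0.11, -0.09 and 0.09. Herpud1, which acts in disposal of misfolded proteins, rose from 42.9 to 125 CPM.

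Genes of zinc handling included a large rise in the exporter Slc30a1, from 9.33, 1.69, 10.0 and 8.38 CPM to 38.1, 45.8, 24.8 and 40.9 CPM (log2 change 2.33 ± 0.25, adjusted p = 3.61e-14). The metallothioneins Mt1, from 308 to 539 CPM, and Mt2, from 176 to 280 CPM, rose as well. They are 3 of 12 tested members of a zinc and metal list, of which 2, the importers Slc39a6 and Slc39a1, fell (log2 -0.37 and -0.28). The zinc and metal list was written after these libraries had been examined. Without number 3 or 4 in every group 1 and 0 of the 12 fell, and with the block in the compared groups 4 did. Among 22 NRF2 antioxidant genes 9 fell and 2 rose, against 10.8% and 7.12% of all tested genes. Hmox1, the haem-degrading enzyme, rose from 105 to 208 CPM, whereas Nqo1 fell from 33.3 to 19.0 CPM and the glutathione transporter Abcc1 from 167 to 88.8 CPM. Nfe2l2, which encodes NRF2 itself, rose from 212 to 325 CPM (log2 change 0.61, adjusted p = 7.93e-09).

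Genes of ribosome assembly fell together, by modest amounts. Of 26 tested, 22 fell and none rose, with a median of -0.51, against 10.8% that fell over all tested genes. This list and that of splicing regulators were written after these libraries had been examined, so their counts only describe the members. Tsr1, a factor in maturation of the small subunit, fell from 183, 192, 180 and 161 CPM to 96.5, 103, 103 and 99.9 CPM (log2 change -0.83 ± 0.10, adjusted p = 4.92e-12). Dkc1, the pseudouridine synthase of small nucleolar particles, fell by 0.72 and the helicase gene Ddx21 by 0.57 on the log2 scale. Of 79 ribosomal protein genes 1 (Rpl10a) rose and none fell, with a median of 0.02, while 6 rose with RLE factors. Of 21 splicing regulators 12 fell, including Srsf3 (log2 -0.58), Srsf5 (-0.61) and Rbm25 (-0.74), and 4 rose, Clk1, Clk2, Clk4 and Tra2b. Without untreated library 1 or treated library 3, 2 rose.

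In a joint list of YAP targets and contractile genes, 11 of 16 tested were lower and 1 higher, Ccn1, with a median of -0.45. Over all tested genes 10.8% fell and 7.12% rose. Smooth muscle actin, Acta2, fell from 599, 561, 582 and 640 CPM to 264, 297, 252 and 246 CPM (log2 change -1.17 ± 0.15, adjusted p = 1.52e-10). Tagln, an actin-binding protein, fell from 39.97 to 13.97 CPM. Cytoplasmic actin, Actb, an abundant transcript, fell from 4728 to 3650 CPM, a change of only -0.37. For genes that make or bind hyaluronan and proteoglycans, in a list written after these libraries had been examined, 7 of 15 fell and 2 rose. Beside Has2 the falling ones included the hyaluronan receptor Cd44, from 787 to 430 CPM, and Ugdh, which supplies the sugar precursor, from 230 to 131 CPM.

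The remaining lists moved little or in both directions. None of 28 interferon-stimulated genes passed the edgeR test, none had an unadjusted p under 0.05, and their median was 0.13. DESeq2 called none of 27, with 2 at an unadjusted p under 0.05. Heat shock chaperones had 6 lower and 2 higher of 15 (Hsph1 -0.85, Dnajb1 0.68). Hypoxia and glycolysis genes had 6 lower and 1 higher of 19, sterol synthesis genes 4 lower of 21, p53 targets 3 lower and 5 higher of 17 and survival and death regulators 3 lower and 1 higher of 14. These small counts varied with the tool and the libraries: DESeq2 called 3 heat shock, 2 sterol and 1 p53 gene lower, and without single libraries the lower sterol genes numbered 1 to 4 and the p53 genes 1 to 3 lower and 3 to 6 higher. The riser among the survival and death regulators was Bcl2l11, which encodes the pro-apoptotic protein BIM, from 10.1 to 25.4 CPM (log2 change 1.34, adjusted p = 1.79e-05). Over all tested genes 10.8% fell and 7.12% rose, so 1 rise among 14 genes is near that share. Of 4 targets of the aryl hydrocarbon receptor, 1 fell and 2 rose.

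As a description of the transcripts, the median number of exons of the longest coding transcript (GENCODE M21) was 9 in falling, rising and uncalled genes, and the median span of the gene was 24.4, 29.1 and 24.7 kb. The median 3′ untranslated region held 1157 bases in falling, 1216 in rising and 990.0 in uncalled genes. The pentamer ATTTA, the core of AU-rich elements found in many unstable transcripts, was searched on the sense strand. It occurred in this region in 71.1% of falling, 74.4% of rising and 66.9% of uncalled genes, at 1.84, 2.01 and 1.84 copies per kb. No test was made of these features.

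The lower concentrations of SC-514 gave smaller sets of changes. At 25 µM, 405 genes rose (3.76%) and 499 fell (4.63%), and at 50 µM 592 rose (5.50%) and 930 fell (8.64%). Rises were 38.9% of the calls at 50 µM, and 54.3% with RLE factors. All concentrations share the untreated libraries, so their values stand side by side. The genes followed below were chosen by their call at 100 µM, so larger values at that concentration are in part fixed by the choice. Among the 1158 genes that fell at 100 µM the median log2 change was -0.25 at 25 µM, -0.35 at 50 µM and -0.52 at 100 µM. Among the 767 that rose it was 0.32, 0.40 and 0.57. In 647 of the falling and 343 of the rising genes, each step in concentration took the value further. That order was not counted over all tested genes.

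The shape differed between genes. Cxcl1 went from 734 ± 83.3 CPM without SC-514 to 445 ± 60.1 CPM at 25 µM, 320 ± 38 at 50 µM and 155 ± 24.4 at 100 µM (SD, n = 4). Il6 went from 73.6 to 26.3, 10.9 and 4.58 CPM. For Il1rl1 most of the fall was present at 25 µM, with means of 1555, 762, 597 and 469 CPM, whereas Has2 fell by similar steps, from 119 to 76.5, 45.7 and 15.4 CPM. Nfkbia went from 748 to 679, 563 and 485 CPM. Egr1 was 341, 356, 412 and 717 CPM, with most of its rise between 50 and 100 µM, and Hist2h3c1 likewise stood at 3.61, 3.80, 6.29 and 18.7 CPM. Dusp5 reached its level at 25 µM, with 104, 239, 232 and 241 CPM.

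**Figure D4:**
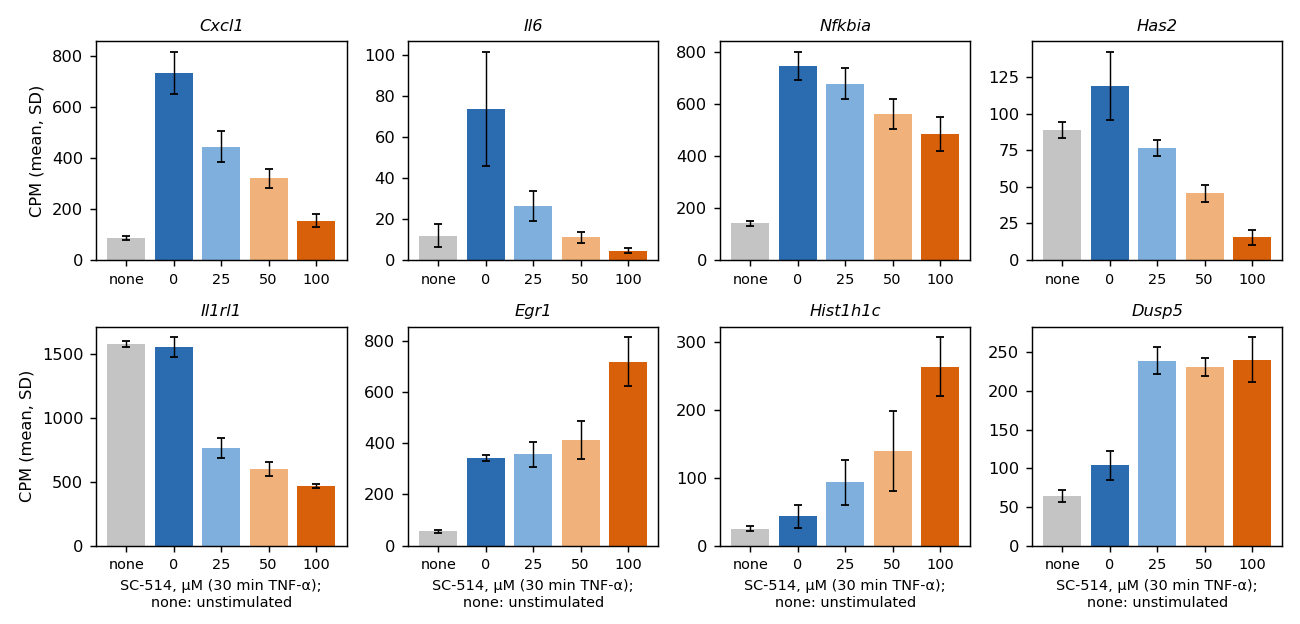
Mean CPM with SD (n = 4 libraries) of 8 genes in unstimulated cells (none) and at 30 min of TNF-α with 0, 25, 50 or 100 µM SC-514. Cxcl1, Il6 and Has2 step down with each concentration, Hist1h1c steps up, and Dusp5 is near 240 CPM at each of the 3 concentrations.

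Libraries at other times and under the other cytokine label share none of these 8 libraries. For comparison, 10.8% of all tested genes fell and 7.12% rose with 100 µM SC-514 at 30 min of TNF-α. At 60 min of TNF-α, 100 µM SC-514 lowered 1468 genes (13.6%) and raised 896 (8.32%). Of these 1468, 856 (58.3%) fell at 30 min, which is 73.9% of the genes that fell at 30 min, and 3 rose. Of the 896, 395 (44.1%) rose at 30 min, 51.5% of the genes that rose at 30 min, and 1 fell. At 15 min, SC-514 lowered 1425 genes (13.2%) and raised 968 (8.99%). The genes in common were 814 falling ones (57.1% and 70.3% of the lists at 15 and 30 min) and 461 rising ones (47.6% and 60.1%). With IL-1β at 30 min, 1346 fell (12.5%) and 1078 rose (10.0%), with 797 falling genes in common (59.2% and 68.8%) and 432 rising ones (40.1% and 56.3%), and no gene called in opposite directions.

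The genes TNF-α raised by 60 min without SC-514 were tested here in libraries of 30 min. Of these 447, 140 (31.3%) were lower and 70 (15.7%) higher with 100 µM SC-514 at 30 min, with a median change of -0.12. Over all tested genes 10.8% were lower and 7.12% higher, with a median of 0.01.

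The effect of 100 µM differed between 30 and 60 min of TNF-α in few genes, with 4 (0.0372%) where it was lower and 42 (0.390%) where it was higher at 30 min by the test of the difference. With the library number as a block and only the compared groups in the fit, the effect was lower in 15 and higher in 90. The 4 were Cxcl1, Dusp1, Enoph1 and Yeats2. For Cxcl1 the log2 effect was -2.24 at 30 min and -0.87 at 60 min, and for Dusp1 it was -1.63 and -0.43. In both the fall was larger at 30 min. Enoph1 had log2 effects of -0.54 at 30 and 0.70 at 60 min and Yeats2 of -0.42 and 0.34. DESeq2 did not call the difference for Enoph1 and Yeats2 (adjusted p = 0.0589 and 0.159). In edgeR a fit of only the compared groups did not call it (0.109 and 0.119), but did with the block added (0.0353 and 0.0241). For Enoph1 it was also lost without number 2, 3 or 4 in every group. For Yeats2 it was lost without number 1, 2, 3 or 4, and with no filter. Cxcl1, Ptges, Twist2, Nfe2l2, Ets1 and Rnd1 differed under each of the 12 alternative settings run.

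The 8 named genes among the 42 had effects that were lower at 60 min than at 30 min. The prostaglandin E synthase Ptges had log2 effects of -0.50 at 30 and -2.19 at 60 min, a difference of 1.70 ± 0.15 (SE). The acute-phase gene Saa3 had effects of -0.23 and -1.83, the GTPase gene Rnd1 of 0.11 and -1.71, and the transcription factor Ets1 of -0.03 and -0.97. Those of Twist2 were -0.36 and -1.36, of Sod2, the mitochondrial superoxide dismutase, -0.19 and -0.78, and of Tgif1 0.18 and -0.48. Nfe2l2 rose by 0.61 at 30 min and had an effect of -0.16 at 60 min. Of the cytokine and chemokine list, 20 of 23 genes fell at 60 min and 12 at 30 min, a contrast of counts that was not itself tested.

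**Figure D5:**
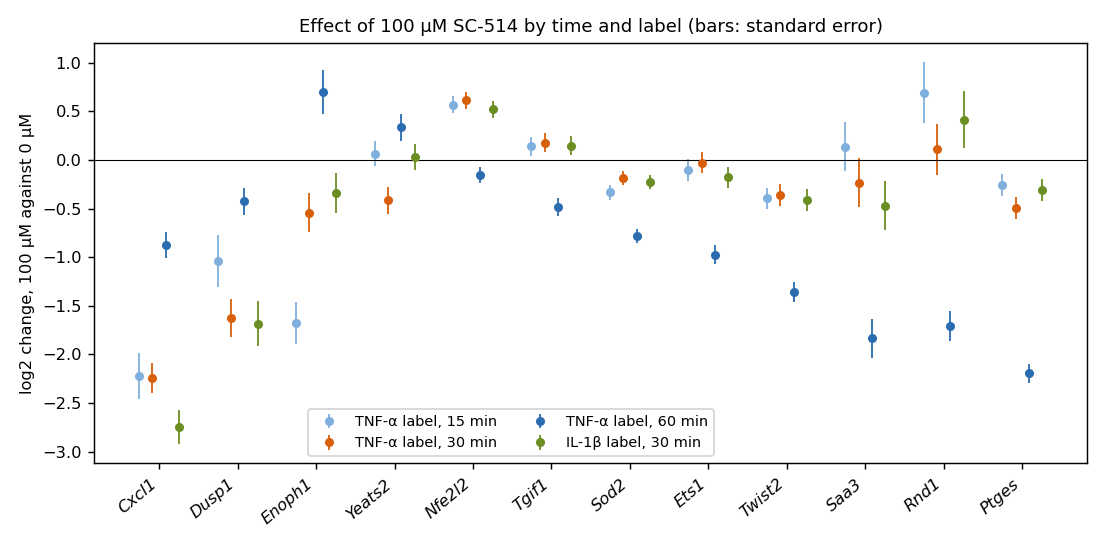
Log2 change with 100 µM SC-514 against 0 µM, with its standard error, for the 12 genes named for a difference between 30 and 60 min of TNF-α, at 15, 30 and 60 min of TNF-α and 30 min of IL-1β. Cxcl1 and Dusp1 lie lowest at 15 and 30 min and with IL-1β, and Ptges, Rnd1, Saa3, Twist2 and Ets1 lie lowest at 60 min.

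Between the TNF-α and IL-1β labels at 30 min the effect of 100 µM differed in 3 genes (0.0279%) in which it was higher and 3 (0.0279%) in which it was lower under TNF-α. The chromatin protein gene Hmga1 had log2 effects of -0.71 under TNF-α and 0.41 under IL-1β, a difference of -1.12 ± 0.25 (SE, adjusted p = 0.0317). Cox7c, of the respiratory chain, had effects of -0.15 and 0.48, Ssbp1, which binds mitochondrial DNA, of 0.25 and -0.55, and the export factor Alyref of -0.16 and -0.66. In a fit of only the compared groups the difference was not called for Ssbp1 (adjusted p = 0.0536, and 0.0578 with the library number as a block) or Alyref (0.145 and 0.0873). The ribosomal protein gene Rpl38 was also among the 6. With the libraries of 1 number left out in every group, 1 to 3 genes differed in place of 6. Hmga1 (adjusted p 0.106 to 0.455), Cox7c (0.106 to 0.51) and Alyref (0.148 to 0.528) were then never called. Ssbp1 was called only without number 3 (0.0492). None of the 6 was a cytokine, chemokine or NF-κB feedback gene.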

How the data were processed

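Read counts per gene from TagSeq were used as the authors deposited them, whole numbers for 22070 genes in 41 groups of 4 columns, all of them used. The submitters' processing notes name Bowtie2 and GRCm38 (mm10). The sources used here do not give the counting tool, its annotation or its use of strand, so overlapping and antisense genes cannot be told apart. The 656 sample records are 4 per column, and a column was counted as 1 library. 2 libraries outside the 8 compared held 12191 and 3839 counts and were kept. No pair among the 8 was identical, and chi-square over degrees of freedom within groups was 1.205 to 2.097 over genes with at least 10 counts.

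Genes passing filterByExpr (10766) were scaled by TMM and fitted in edgeR 4.0.16 (R 4.3.3) in a robust quasi-likelihood model over 41 groups, with 123 residual degrees of freedom and a biological coefficient of variation of 0.0799. P-values were adjusted over all tested genes, with a threshold of 0.05. CPM are TMM-scaled, except those of the cell type markers, and errors after log2 changes are standard errors. At these depths 3 counts equal 2.16 to 2.8 CPM. Intervals cover counting error only (exact, 95%). Symbols and positions come from GENCODE M21, which matched 21878 identifiers and missed 192. Lists use these symbols, and Cyr61 and Ctgf were read as Ccn1 and Ccn2.

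Libraries of the same number in both groups deviated together: the correlations of their deviations from the group means across 7545 genes were 0.159, 0.126, 0.17 and 0.166. Untreated 1 with treated 2 (0.144) and untreated 3 with treated 4 (0.128) came close to these values. Other unlike numbers gave -0.158 to 0.0218. The check therefore does not show that libraries pair by number alone, and no label says so. An alternative fit had the number as a block. Genes were named by rule: the 15 largest changes per direction with at least 5 CPM in the higher group and no overlap, up to 8 per direction for each test of a difference, 4 per list by p, and a fixed set of inflammatory genes. Other list members are given as examples chosen with their values known. The comparison, members and lists were chosen with earlier results of these data known. The lists of zinc handling, hyaluronan, ribosome assembly, splicing, growth factors and chromatin regulators were written after these libraries had been examined, and the histone and ribosomal protein lists were formed by symbol. Alternatives were another scaling, DESeq2 1.42.0, no filter, fewer libraries, the block, and leaving out libraries. Some genes that meet these rules are not reported here.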

Additional observations from a re-analysis of the deposited data

Results flagged for a closer look

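Among 300 group values of 150 named genes, 18 had a library whose gap to the nearest of the other 3 took up more of the group's whole range than Dixon's 95% limit for 4 values. Chance gives such a gap in about 1 in 20 groups. Among the cells with 100 µM SC-514 the highest library stood apart for Fosb (42.6 CPM), Egr1 (859 CPM), Id2 (74.5 CPM), Arid5a (80.9 CPM), Irf2bp2 (385 CPM), Srsf7 (199 CPM) and Kcnk10 (0.705 CPM, the only treated library in which it had a count). The lowest library with SC-514 stood apart for Grhl1 (4.58 CPM), Alyref (198 CPM), Jun (119 CPM), Brd2 (577 CPM), Ugdh (117 CPM) and Actb (3460 CPM). Without SC-514 the lowest library stood apart for Atoh8 (5.44 CPM), Dusp5 (75.9 CPM), Bag3 (132 CPM), Ssbp1 (51.8 CPM) and Slc39a6 (116 CPM).

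The effect of 100 µM SC-514 differed between the TNF-α and IL-1β labels at 30 min, by the test of the difference, for Hmga1 (log2 difference -1.12), Cox7c (-0.62), Ssbp1 (0.80) and Alyref (0.50). With only the compared groups in the fit and the library number as a block, Ssbp1 (adjusted p = 0.0578, edgeR) and Alyref (0.0873) were not called. Hmga1 and Cox7c were not called when any 1 number was left out in every group. Between 30 and 60 min of TNF-α the log2 effect was lower at 30 min for Cxcl1 (by a difference of -1.37), Enoph1 (-1.24), Dusp1 (-1.20) and Yeats2 (-0.75). The differences of Enoph1 and Yeats2 were not called by DESeq2 or in an edgeR fit of only the compared groups. For the following genes the effect at 30 min was the higher one. They were Rnd1 (1.82), Ptges (1.70), Saa3 (1.60), Twist2 (1.00), Ets1 (0.95), Nfe2l2 (0.77), Tgif1 (0.66) and Sod2 (0.60).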

How the results depend on the processing

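For 100 µM against 0 µM, 1402 to 2130 genes were called under the 9 settings that kept all 8 libraries, against 1925. Leaving out 1 of the 8 libraries, or 1 number in every group, gave 1338 to 1698. DESeq2 called 770 genes lower (1158 by edgeR), and without number 2 or 3 in every group 483 and 505 were higher (767 with all). No named gene called in the main fit reversed its direction, and changes of sign in uncalled genes were not counted. With the library number as a block, 2018 genes were called, all 1925 among them, and among named genes the block changed only Ccne2, from not called to lower (adjusted p = 0.0401). Enoph1, Yeats2, Hmgcs1, Cyp51, Bcl2l1, Twist2, Fdft1, Areg, Bax, Slc39a6, Junb and Fosb lost their call under at least 2 alternatives. Of 21 alternatives, 16 took the call from Enoph1, 10 from Yeats2 and 9 each from Hmgcs1 and Fosb. The differences between labels numbered 12 with RLE factors, 15 with no filter and 11 with DESeq2, against 6, and 1 to 3 with 1 number left out. Those between 30 and 60 min numbered 87 with no filter, 105 with the block in the compared groups and 26 with DESeq2, against 46, and 10 to 27 with 1 number left out, where Dusp1, Sod2, Tgif1 and Saa3 were lost without number 3. TNF-α alone changed 187 genes with no filter and 154 with the block in the compared groups, against 71, and 46 to 95 with 1 number left out. At 25 µM DESeq2 called 588 genes against 904, and leaving out 1 number gave 520 to 618. At 50 µM it gave 883 to 1241 against 1522, and for TNF-α with 100 µM against unstimulated cells 1567 to 1731 against 2184. The cause of these differences was not tested. Fewer libraries remain when a number is left out. Genes under 3 counts in a group, such as Cxcl2 and Kcnk10, are limited by depth.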
